A study of Mus musculus with 4 samples.

Results

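The 7 mouse genes of the cyclin-dependent kinase (CDK) inhibitors, Cdkn1a, Cdkn1b, Cdkn1c, Cdkn2a, Cdkn2b, Cdkn2c and Cdkn2d, were examined for binding of RYBP. They were chosen by name and located on the GENCODE annotation of mouse genome build mm9, as 7 of 22225 protein-coding gene symbols. A locus was the gene body plus 5 kb upstream. RYBP had been profiled by chromatin immunoprecipitation and sequencing (ChIP-seq) in FLK1+ mesoderm, the population that gives rise to blood and endothelium, sorted from embryoid bodies of wild-type mouse embryonic stem (ES) cells. The labels give strain C57Bl/6 X Sv129 and day 3.75. In the study's methods the ES cell line is J1 and the day of sorting a little later. There were 2 RYBP ChIP samples and 2 inputs, all wild type and without treatment. The inputs were not analysed here, so no locus was compared with input directly and no value in RYBP-deficient cells enters. The design text of the series names SCL ChIP, whereas its title and the antibody (against DEDAF, another name of RYBP) name RYBP. That text describes the replicates as coming from independent differentiations. All cells came from 1 ES cell line differentiated in culture.

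CDK inhibitors restrain the passage from G1 to S phase of the cell cycle. The Ink4 proteins, encoded by Cdkn2a, Cdkn2b, Cdkn2c and Cdkn2d, bind CDK4 and CDK6 and keep cyclin D from activating them, while the Cip/Kip proteins, encoded by Cdkn1a, Cdkn1b and Cdkn1c, bind complexes of cyclins with CDK2 and others. Cdkn2a also encodes Arf from a separate first exon and another reading frame, and Arf stabilises p53 by binding MDM2. RYBP is a subunit of non-canonical Polycomb repressive complex 1 (PRC1), which ubiquitylates histone H2A. The Ink4a, Arf and Ink4b locus is a textbook target of Polycomb proteins, which keep it silent in young dividing cells.

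Peaks had been called by the authors in each replicate on its own, and every peak carries a fold enrichment (FE), the linear ratio of the ChIP pile-up to the local background, and a −log10 q. Merged regions are the union of both lists. Replicate 1 had 14794 peaks and replicate 2 had 18154, which gave 22409 merged regions, of which 44.2% were found in both replicates. Peak lists carry no read depth, so a locus without a peak had no call at these depths, and RYBP there is not shown to be absent.

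RYBP regions lay at 6 of the 7 CDK inhibitor loci, and Cdkn2d was the locus with none. Among all protein-coding loci the share with a merged region was 57%. In both replicates a region was found at 5 of the 7 loci (Cdkn1a, Cdkn1c, Cdkn2a, Cdkn2b and Cdkn2c), against 38.9% of all protein-coding loci. At Cdkn1b the region was called in replicate 2 alone. Within 2.5 kb of a start site, 6 of the 7 genes had a merged region (54% of all genes) and 5 had one of both replicates (37.2% of all genes). The 7 genes were not picked at random and no test was made of these counts. The CDK inhibitor loci ran from 7701 to 25181 bp, against a median of 20525 bp over all protein-coding loci. Of the 7, 6 were of at most 20 kb, and Cdkn2a was longer. Of all protein-coding loci of at most 20 kb, 42.8% held a merged region.

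The DNA just before the start sites shows how unlike each other these genes are. The 200 bases upstream of a start site are printed from the mm9 genome, 5′ to 3′ on the strand of the gene, with every CpG dinucleotide in capitals. They are shown for the Arf and Ink4a start sites of Cdkn2a, which differ widely in CpG content, for Cdkn2b, Cdkn1b and Cdkn1a, and for Cdkn2d, which had no peak.
Arf start site of Cdkn2a, chr4:88940558-88940757, minus strand: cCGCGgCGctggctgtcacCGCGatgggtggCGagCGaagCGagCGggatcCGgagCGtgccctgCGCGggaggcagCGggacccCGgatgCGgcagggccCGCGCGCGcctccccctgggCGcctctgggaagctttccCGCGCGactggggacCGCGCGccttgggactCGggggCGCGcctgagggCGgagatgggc
Ink4a start site of Cdkn2a, chr4:88928097-88928296, minus strand: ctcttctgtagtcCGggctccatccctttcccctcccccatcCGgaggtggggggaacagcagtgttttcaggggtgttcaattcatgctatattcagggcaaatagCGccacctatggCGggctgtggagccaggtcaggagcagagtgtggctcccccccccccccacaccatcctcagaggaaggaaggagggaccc
Cdkn2b, chr4:88956942-88957141, minus strand: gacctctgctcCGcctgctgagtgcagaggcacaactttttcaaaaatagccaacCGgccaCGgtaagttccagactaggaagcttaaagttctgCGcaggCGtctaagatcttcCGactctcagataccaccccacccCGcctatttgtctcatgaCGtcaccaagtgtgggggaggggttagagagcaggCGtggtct
Cdkn1b, chr6:134870219-134870418, plus strand: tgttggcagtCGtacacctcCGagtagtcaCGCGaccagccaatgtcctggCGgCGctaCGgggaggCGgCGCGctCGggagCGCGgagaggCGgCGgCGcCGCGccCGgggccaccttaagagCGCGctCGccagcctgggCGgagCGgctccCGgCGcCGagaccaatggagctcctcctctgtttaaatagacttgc
Cdkn1a, chr17:29230517-29230716, plus strand: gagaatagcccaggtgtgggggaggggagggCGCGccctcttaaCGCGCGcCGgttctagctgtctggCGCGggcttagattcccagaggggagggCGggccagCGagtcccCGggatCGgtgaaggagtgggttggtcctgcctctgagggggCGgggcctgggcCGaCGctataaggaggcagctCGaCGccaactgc
Cdkn2d, chr9:21095654-21095853, minus strand: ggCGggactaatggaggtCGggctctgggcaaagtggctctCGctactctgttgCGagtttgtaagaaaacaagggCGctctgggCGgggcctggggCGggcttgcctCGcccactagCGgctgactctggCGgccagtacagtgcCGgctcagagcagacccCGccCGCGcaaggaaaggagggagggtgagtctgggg
The letters searched were CG, which read the same on both strands. The Arf stretch holds 31 CpG sites, a number reached by 2.74% of the 70051 start sites of protein-coding genes, whose median is 7. Cdkn1b holds 27, reached by 5.94% of start sites. Cdkn1a holds 17, Cdkn2d 14, Cdkn2b 9 and the Ink4a start site 4, the last being reached by 64.4% of start sites. At least 1 CpG was present in 92.2% of all such stretches. Both replicates covered all 200 bases before the Arf and Ink4a start sites. Replicate 2 alone covered those of Cdkn1b, and 139 of those of Cdkn2b. No peak covered any base of the Cdkn1a or Cdkn2d stretch. The Ink4a stretch, with 4 CpG sites, was covered in both replicates, by a peak with a −log10 q of 1.899 in replicate 1. Those of Cdkn1a and Cdkn2d, with 17 and 14, were covered in neither, but the Cdkn1a region began 99 bp downstream of the start site. The share of all start sites with such a stretch covered is not given here, so these cases show no relation of coverage to CpG content.

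The highest FE within the 7 loci was found at the Arf start site of Cdkn2a (ENSMUSG00000044303), in both replicates. The gene occupies chr4:88920377-88940557 on the minus strand, and 5 merged regions fell in its locus, a number reached by 1.87% of protein-coding loci. The Arf region, chr4:88938314-88943164, is 4851 bp wide and covers the upstream sequence, exon 1 of the Arf transcripts and part of the intron behind it. Its FE was 4.387 in replicate 1 and 6.009 in replicate 2, with −log10 q of 5.182 and 9.617. In replicate 1, 7.93% of all peaks had an FE at least as high, and in replicate 2 this was 2.25%. Replicate 1 showed a single peak of 4421 bp there, whereas replicate 2 showed a peak of 2621 bp over the start sites and a separate one of 822 bp in the intron with an FE of 3.14.

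The Ink4a start site of Cdkn2a, 12461 bp downstream of the Arf start, lay inside a second region, chr4:88927252-88928788. Its FE was 3.334 in replicate 1 and 4.243 in replicate 2, so that both replicates gave a lower value than at the Arf start site. The −log10 q was 1.899 in replicate 1, a value that 60.9% of its peaks reached, and 4.317 in replicate 2, which 25.4% reached. A further region, chr4:88918265-88925964, spanned 7700 bp from within the gene past its 3′ end. It holds 378 bp of Cdkn2a coding sequence, in exons that Ink4a and Arf share, and both start sites of the non-coding gene Gm12606. Here FE was 3.713 in replicate 1 and 4.206 in replicate 2. The remaining 2 regions came from 1 replicate each. An intronic one of 893 bp had an FE of 3.527 in replicate 2 alone, and an upstream one of 541 bp had an FE of 3.424 in replicate 1 alone. Merged regions covered 51.9% of the Cdkn2a locus of 25181 bp. As much was covered at 1.46% of all protein-coding loci and at 0.15% of those over 20 kb, many of which are longer than Cdkn2a.

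Cdkn2b (ENSMUSG00000073802), the Ink4b gene, starts 16384 bp upstream of the Arf start site at chr4:88952198-88956941 on the same strand. Its start site lay in a region of 1310 bp, chr4:88955771-88957080, with an FE of 3.534 in replicate 1 and 4.432 in replicate 2. The replicate 2 peak included the start site, whereas the replicate 1 peak ended 32 bp short of it, inside the gene. A second region, chr4:88952325-88953205, lay wholly in the last exon, over 240 bp of coding and 641 bp of untranslated sequence, with FE of 3.67 and 4.085. The regions covered 22.5% of the locus.

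**Figure D1:**
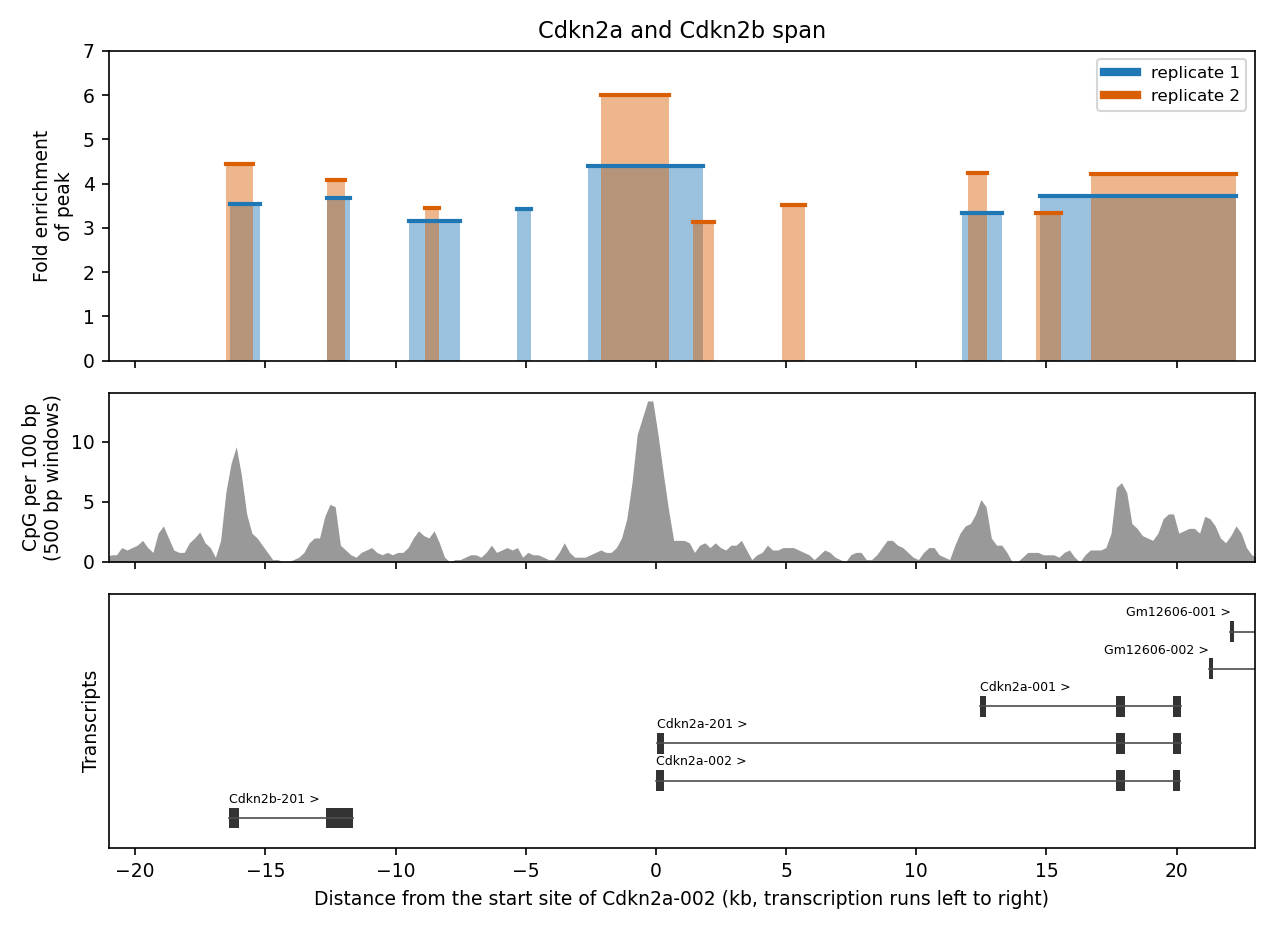
Peaks of both replicates over the Cdkn2a and Cdkn2b span, drawn against distance from the Arf start site in kb; bar width is the extent of a peak and bar height its FE (linear, no error within a replicate), with CpG per 100 bp in windows of 500 bp and the transcripts (boxes are exons) under it. The tallest bars, 4.387 and 6.009, stand over the CpG maximum at the Arf start site, and the broad peaks at the right lie over the shared exons and past the 3′ end.

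Read as one span from the 3′ end of Cdkn2a to 5 kb upstream of Cdkn2b (chr4:88920377-88961941, 41565 bp), the Ink4 and Arf locus held 8 merged regions, 6 of them in both replicates. Together they covered 17532 bp or 42.2% of the span. Replicate 1 peaks covered 38.2% and replicate 2 peaks 28.5%, and 24.5% was covered in both. Merged regions covered 0.959% of chromosomes 1 to 19, X and Y. Windows of the same width centred on the midpoint of each protein-coding gene had a median of 0% covered, with 0.58% of them covered as much as this span. A gene longer than its window can lose its start site in this way, whereas the span holds all start sites of both genes. In both replicates there were gaps between the peaks, so the span was called as a chain of regions. RYBP in the gaps is not shown to be absent. The region between the genes, chr4:88948095-88950025, was the weakest of those in both, with FE of 3.152 and 3.442. At a stricter −log10 q of at least 2 the share of the span covered fell to 30.8%, where the Ink4a start site kept its replicate 2 peak only. The next protein-coding genes, Mtap at 93392 bp and Dmrta1 at 389186 bp, are far from the span.

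Cdkn2c (ENSMUSG00000028551), which encodes the Ink4 protein Ink4c, carried a wide region over both of its start sites. The gene lies at chr4:109333481-109339794 on the minus strand, and the region, chr4:109336044-109339941, is 3898 bp wide. Its FE was 4.295 in replicate 1 and 5.714 in replicate 2, with −log10 q of 5.693 and 8.938, so its FE was a little lower than that of the Arf region in each replicate and its −log10 q in replicate 1 was higher. It contains 1806 bp of untranslated exon and 129 bp of coding exon. A peak of 270 bp in the last exon was called in replicate 2 alone (FE 3.743). Of the locus 36.8% was covered, which 5.45% of loci of at most 20 kb reached. Beyond the 3′ end, outside the locus, a region of 4367 bp in both replicates (FE 4.501 and 5.331) covers 3 start sites of the lincRNA 9630013D21Rik. In replicate 1 its FE was above that of the Arf region. A replicate 2 region upstream (FE 3.295) lies over the start site of the neighbour Faf1, which is 9399 bp from Cdkn2c and reads the other way. On the other side the next protein-coding gene, 4930522H14Rik, was 129579 bp away.

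Cdkn2d (ENSMUSG00000066860), which encodes the Ink4 protein Ink4d, was the single CDK inhibitor gene with no RYBP peak in either replicate. The gene lies at chr9:21092907-21095653 on the minus strand between Kri1, 492 bp away, and Ap1m2, 4248 bp away. The nearest peak to its locus was 24671 bp away in replicate 1 and 15762 bp away in replicate 2. Within 500 bp of its start site there were 6.59 CpG per 100 bp, more than at the start sites of Cdkn2b (6.29), Cdkn2c (5.89) and Cdkn1a (5.29), all of which had regions of both replicates. This order depends on the window. The densest 500 bp window within 2.5 kb of the start site held 7 CpG per 100 bp at Cdkn2d. At Cdkn2b, Cdkn2c and Cdkn1a it lay downstream of the start site and held 10, 10.2 and 9.

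Cdkn1c (ENSMUSG00000037664), which encodes the Cip/Kip protein Kip2, was the most fully covered of these loci. Cdkn1c is an imprinted gene, expressed from the maternal allele, and the peak lists do not separate alleles. The gene spans chr7:150644255-150646955 on the minus strand, and one region of 3613 bp, chr7:150644071-150647683, covered it from before its start site to past its 3′ end. The replicate 1 peak covered the whole gene, whereas that of replicate 2 ended 634 bp short of the 3′ end and covered 76.5% of the gene. Its FE was 4.362 in replicate 1 and 5.62 in replicate 2, with −log10 q of 5.151 and 9.067. A second region, chr7:150648792-150652045, began 1837 bp upstream of the start site. There FE was 4.09 in replicate 1 and 3.795 in replicate 2, the single member region in both replicates that was higher in replicate 1. The replicates also differed in its extent, with a peak of 634 bp in replicate 1 and of 3254 bp in replicate 2. Merged regions covered 85.6% of the locus, 51.1% in replicate 1 and 77.4% in replicate 2, and 0.696% of loci of at most 20 kb were covered as much. A further 7 merged regions lay outside the locus but within 20 kb of the gene body. Of these, 2 were found in both replicates, downstream of the gene, 4 in replicate 2 alone and 1 in replicate 1 alone. The neighbours are Kcnq1, 31300 bp away, and Slc22a18, 12671 bp away, and 3 of the regions of a single replicate lay within Slc22a18.

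Cdkn1a (ENSMUSG00000023067), which encodes Cip1, the p53 target known as p21, had a single region of moderate strength. The gene spans chr17:29227924-29237667 on the plus strand and has 3 annotated start sites. The region, chr17:29230816-29232185, lay wholly in the intron behind the first exon of transcript Cdkn1a-001, and its edge was 99 bp downstream of that start site. Its FE was 3.336 in replicate 1 and 4.421 in replicate 2. It was rich in CpG, with 7.37 CpG per 100 bp against 5.29 within 500 bp of the start site. The other start sites of Cdkn1a were 2891 bp or more from a peak in either replicate. A region 8613 bp upstream of the gene, outside the locus, was also found in both replicates (FE 3.318 and 3.999). The nearest protein-coding genes, Srsf3 and Rab44, were 47613 and 34334 bp away.

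Cdkn1b (ENSMUSG00000003031), which encodes Kip1, known as p27, had a region of 1648 bp over its start site in replicate 2 alone. The region, chr6:134869431-134871078, had an FE of 3.763 and a −log10 q of 3.107, values that 41.7% and 41.1% of replicate 2 peaks reached. It covers 519 bp of 5′ untranslated and 141 bp of coding sequence in exon 1 of the gene, which lies at chr6:134870419-134875531 on the plus strand. Its start site had 9.09 CpG per 100 bp. In replicate 1 the nearest peak began 1230 bp beyond the 3′ end of the gene. That peak belonged to a downstream region, chr6:134876762-134879308, found in both replicates with FE of 3.19 and 4.654, and it lay outside the locus. This region was nearer to Cdkn1b than to any other protein-coding gene. Measured from Cdkn1b itself, Gpr19 was 22476 bp away and Apold1 56488 bp.

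**Figure D2:**
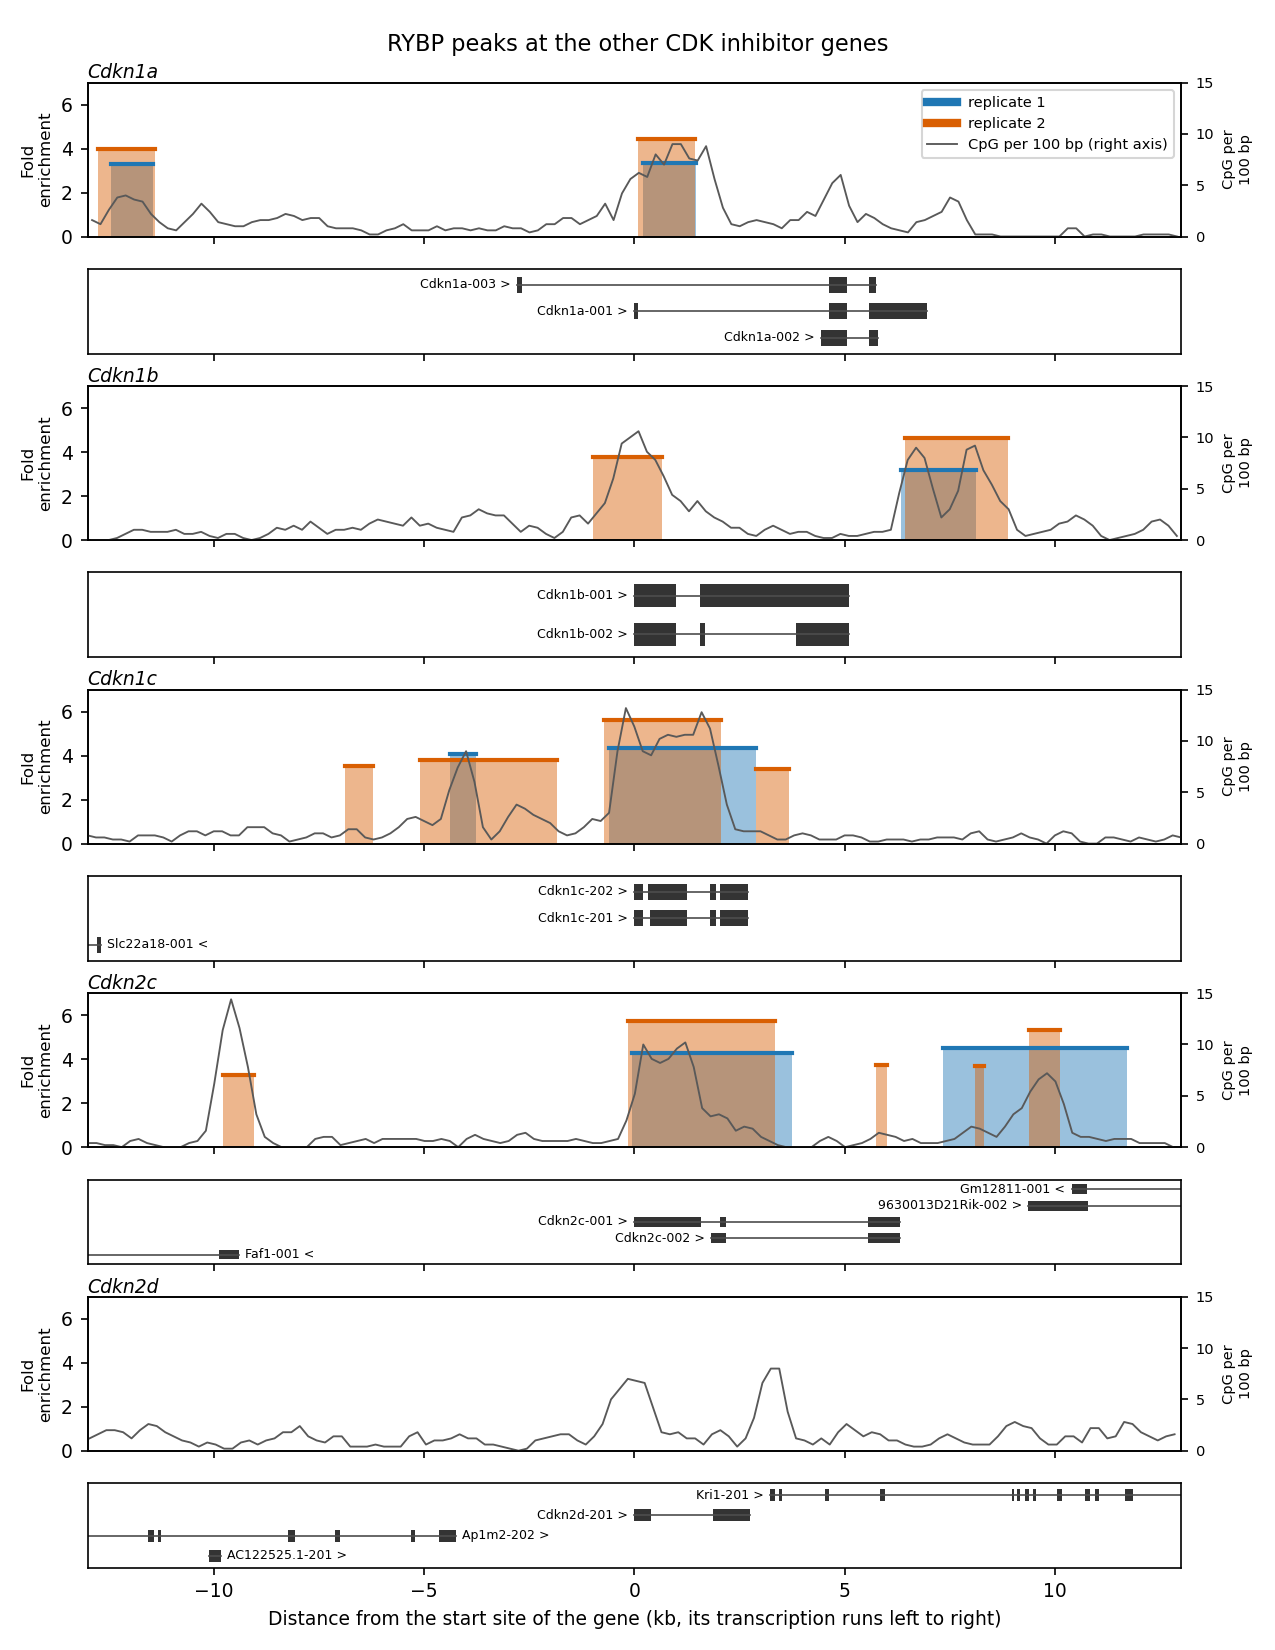
Peaks of both replicates close to the start sites of Cdkn1a (transcript Cdkn1a-001), Cdkn1b, Cdkn1c, Cdkn2c (Cdkn2c-001) and Cdkn2d, drawn as in the plot of the Ink4 and Arf span, with the CpG line on the right axis and 1 transcript of each neighbouring gene. Cdkn1c is covered from end to end in replicate 1 and over 76.5% of its length in replicate 2, the Cdkn1a region sits behind the start site, and Cdkn2d shows CpG maxima with no peak.

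Ordered by the highest FE at each locus, Cdkn2a came first with 5.198 ± 1.147 (SD, n = 2), Cdkn2c followed with 5.005 ± 1.003 (SD, n = 2) and Cdkn1c with 4.991 ± 0.8896 (SD, n = 2). Cdkn2b had 4.051 ± 0.5392 (SD, n = 2) and Cdkn1a 3.879 ± 0.7677 (SD, n = 2). Neighbours in this order differed by less than the SD between replicates, with the gap from Cdkn1c to Cdkn2b as the exception for the SD of either gene. Replicate 2 was higher at each of these loci, and the SD includes that shift. It therefore does not measure the spread of a difference between genes. Within each replicate the first 3 genes stood above the other 2, from 4.295 upwards against at most 3.67 in replicate 1 and from 5.62 upwards against at most 4.432 in replicate 2. Across replicates these ranges overlapped, since replicate 2 values were higher. A locus with several peaks has more chances of a high maximum, and Cdkn2a had most. With 2 replicates no test was made.

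Replicate 2 gave the higher FE in 8 of the 9 member regions found in both replicates. Over the whole series it did so in 77.7% of the 9901 such regions, so the direction is that of the libraries at large. The median ratio of replicate 2 to replicate 1 was 1.273 at these genes, within a range of 0.9279 to 1.37, against 1.137 over all regions in both. The 10 peaks of replicate 1 at the member loci had a median FE of 3.691, against 3.293 for all its peaks. In replicate 2 the 14 peaks had a median of 4.145 against 3.601. None of the replicate 1 peaks at the member loci fell under the median of its list, and 3 of those of replicate 2 did, all of them at Cdkn2a.

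**Figure D3:**
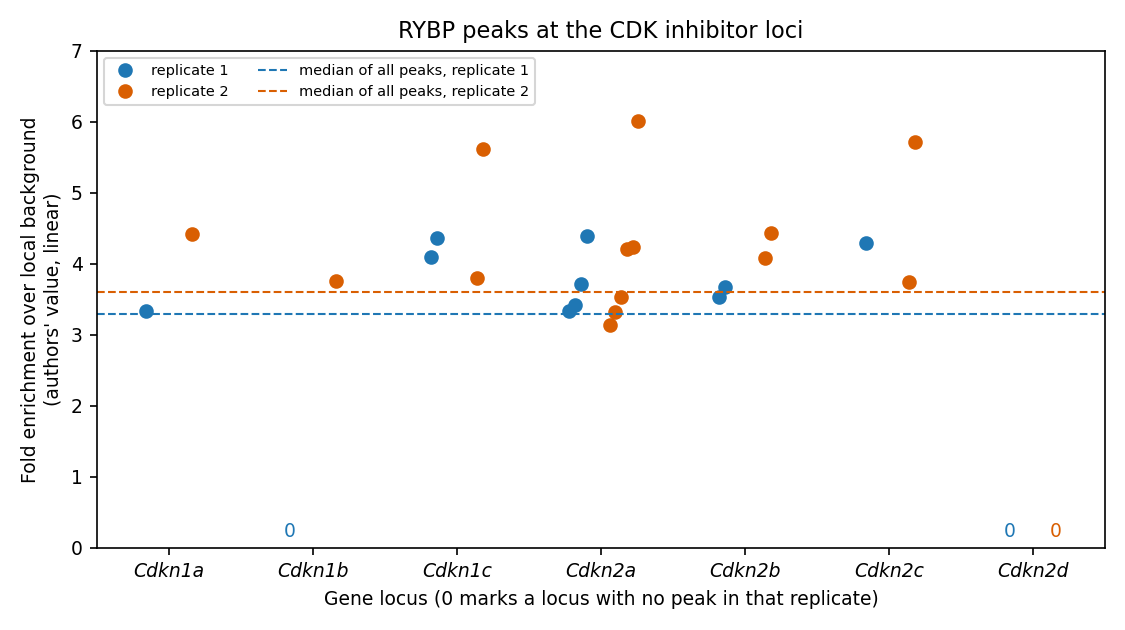
FE (linear, as computed by the authors' caller) of every peak at the 7 CDK inhibitor loci, 10 in replicate 1 and 14 in replicate 2, with each replicate's median over all peaks as a dashed line. Cdkn2a, Cdkn2c and Cdkn1c hold the replicate 2 peaks over 5, and Cdkn2d holds none.

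Regions at these genes were wide. Their median width was 1537 bp over 13 merged regions, against 766 bp over all, and 5 of the 13 were at least 3 kb wide, as were 5.81% of all merged regions. The 5 wide regions lay at Cdkn2a, Cdkn2c and Cdkn1c. Merged regions covered a median of 22.5% of the 7 loci, against 0.782% over all protein-coding loci. For loci of at most 20 kb with a region, the median was 22.5% over 5 members and 11.1% over all such loci. A merged region is at least as wide as the peaks it joins. In single replicates the median peak widths were 1398 bp and 1206 bp, against 766 bp and 763 bp for all peaks.

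All 7 genes had at least 1 start site with 3 or more CpG per 100 bp within 500 bp. Among the 13506 protein-coding genes with such a CpG-rich start site, 82.1% had a merged region at a start site, so 6 of 7 was near the share of genes of that kind. Cdkn2d belonged to the 2414 without one. The share among such genes is not given here for regions of both replicates. The 5 of 7 with a region of both replicates therefore stand beside the share over all genes only, which is not matched for CpG. The CpG density of the regions themselves was not high, with a median of 3.29 CpG per 100 bp at the member loci against 4.08 over all merged regions. For regions in both replicates it was 4.23 against 6.02, and for those in 1 replicate 1.49 against 2.08. At Cdkn2a the wide region over the Arf start site (4.23 CpG per 100 bp) extends beyond the CpG-rich sequence there. The region of 7700 bp past the 3′ end (2.32 CpG per 100 bp) holds no Cdkn2a start site. Both are drawn in the plot of the Ink4 and Arf span.

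**Figure D4:**
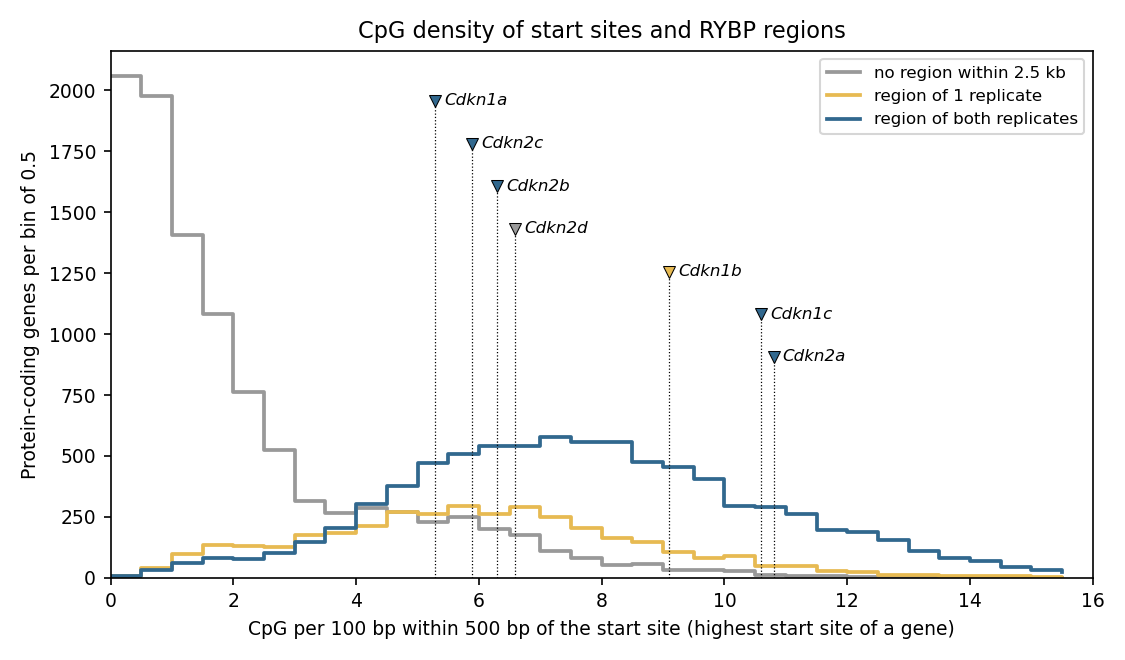
Number of protein-coding genes by the highest CpG density of their start sites (bins of 0.5 CpG per 100 bp), split by whether a merged region within 2.5 kb was found in both replicates (8257 genes), 1 replicate (3739) or neither (10229), with the 7 genes marked in the colour of their group. The medians of the groups are 7.69, 5.89 and 1.4 CpG per 100 bp, and Cdkn2d at 6.59 lies far above the median of the group without a region.

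Other genes of the G1 cell cycle were read from a list of 21, made up of cyclins, kinases, Cdc25a, pocket proteins, E2F factors, Trp53 and Mdm2. A merged region was present at 20 of the 21 loci, against 57% of all protein-coding loci, and one of both replicates at 18, against 38.9%. All 21 had a CpG-rich start site, as defined above, and 83.7% of the loci of such genes held a merged region. The same share for regions of both replicates is not given here. The locus of the list without a merged region was Trp53, which encodes p53. Cdk2, whose kinase is bound by Cip/Kip proteins, had a region in replicate 1 alone (FE 2.938), and Mdm2 in replicate 2 alone (FE 3.401). Ranked by the smaller of both replicate values, Ccne2, which encodes cyclin E2, led with FE of 7.245 in replicate 1 and 7.83 in replicate 2. E2f6, which encodes an E2F repressor found in a complex with PRC1 subunits, followed with 6.187 and 7.731. Ccnd1, the cyclin D1 gene, had 4.488 and 4.6, and Cdk4, a target of the Ink4 proteins, had 4.341 and 4.34. These are the highest values at each locus, and Cdk4 had 2 merged regions. At its start site Cdk4 had 4.341 in replicate 1 and 3.084 in replicate 2. Every CDK inhibitor region was thus below Ccne2 and E2f6 in FE in each replicate.

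The CDK inhibitor loci and those of the list were set side by side. The median of the highest FE at a locus with a peak was 4.295 in replicate 1 and 5.026 in replicate 2 for the CDK inhibitors, 3.577 and 4.064 for the list, and 3.533 and 3.918 over all protein-coding loci. Among loci of at most 20 kb, merged regions covered a median of 19.4% over 6 CDK inhibitors and of 9.27% over 9 loci of the list. Over loci of any length the medians were 22.5% and 5.33%. Wide regions were also seen at the list, where 5 of 26 merged regions were at least 3 kb wide, against 5.81% of all merged regions. Their median width was 1126 bp at the list, 1537 bp at the CDK inhibitors and 766 bp over all. Regions at the list were denser in CpG than those at the CDK inhibitors, with a median of 6.66 per 100 bp against 3.29. No test was made of these differences.

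**Figure D5:**
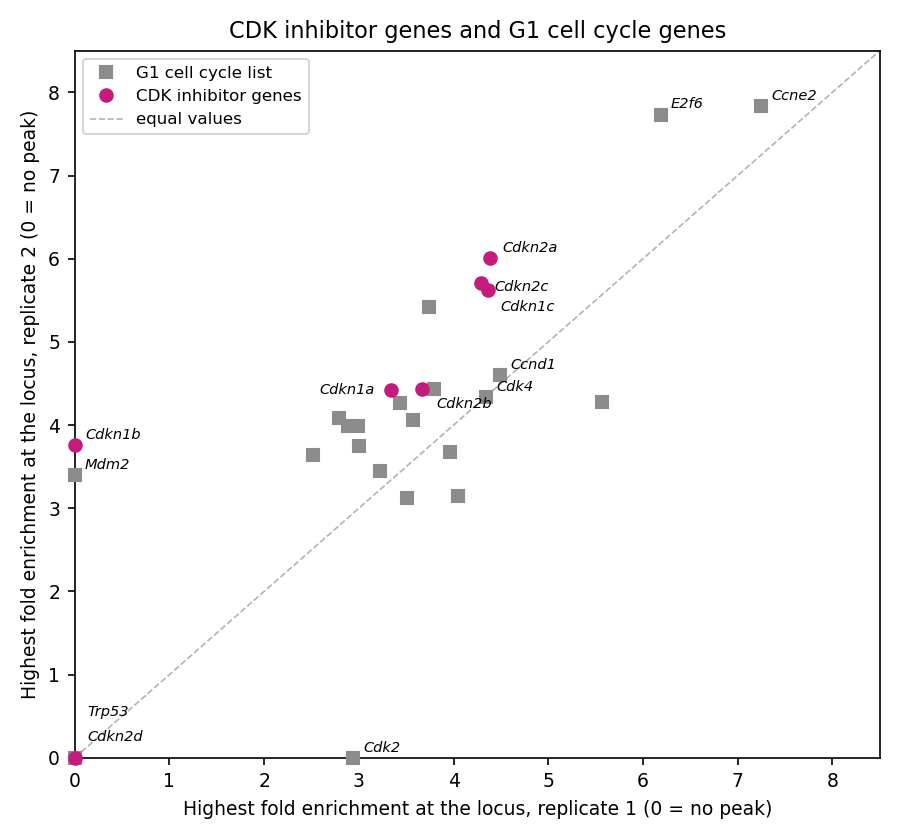
Highest FE at each locus in replicate 1 (x axis) and replicate 2 (y axis), both linear, for the 7 CDK inhibitor genes and the 21 genes of the G1 list; a value of 0 stands for no peak and the dashed line marks equal values. Cdkn2a, Cdkn2c and Cdkn1c sit together above most of the list, and Ccne2 and E2f6 lie beyond them in both replicates. In replicate 1 alone, E2f1 (5.57, not labelled) and Ccnd1 (4.488) also exceed every CDK inhibitor locus. Cdkn2d and Trp53 share the origin.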

How the data were processed

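In the study's methods, chromatin was fixed with EGS and formaldehyde, paired-end reads were aligned to mm9 with Bowtie (1.1.2b), duplicates were removed, and broad peaks were called with MACS2 (2.0.10), versions being those in the submitters' processing notes. Each deposited peak has a fold enrichment (a linear ratio) and −log10 values of its p-value and q-value, all from the authors' caller. The deposited score was not used. The authors' merged list has positions alone, and all 22409 regions equalled the union of both peak lists once replicate 2 starts were moved by 1 bp, so a start carries that uncertainty.

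Loci and sequences came from GENCODE vM1 and the mm9 (NCBIM37) genome, read with pysam 0.24.0. Interval code was checked against bedtools 2.31.1 on simulated intervals, and an overlap of 1 bp counted. The genes and the G1 list were chosen with earlier results of these data known. The rule named all 7 genes with every region at their loci, their protein-coding neighbours, genes starting within 2.5 kb of a region and, of the list, those without a region and the 4 with the highest smaller FE. Cdk2, Mdm2 and E2f1 were named after their values were seen. Counts stand beside those over all protein-coding genes, with no test. Alternatives were other windows, stricter thresholds and each replicate alone. Sequences before start sites other than the 6 printed are not reported here.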

Additional observations from a re-analysis of the deposited data

How the results depend on the processing

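No alternative reversed a result. With each replicate left out in turn, member loci with a region ranged from 5 to 6, regions at them from 10 to 14, genes with a region at a start site from 5 to 6, list loci with a region from 19 to 19, and the share of the Cdkn2a and Cdkn2b span covered from 28.5% to 38.2% (42.2% in the union). At a −log10 q of at least 2 that share was 30.8%. The median CpG density of the member regions was 3.7 per 100 bp in 1 kb centred on each region and 4.23 for regions found in both replicates, against 3.29. Counting only regions found in both replicates, chosen after seeing the data, left 9 regions and 5 genes. Of the alternatives, 62 values kept their size within the limits used and 12 moved, 8 of them shares over all genes. No paired analysis was possible because the result comes from no test, and the inputs were not analysed here. With 2 replicates and peak lists without depth, a missing call and weak binding cannot be told apart.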
